A study of Mus musculus with 11 samples.

Results

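Interferon regulatory factors (IRFs) are transcription factors that share a DNA-binding domain and recognise GAAA repeats in the promoters of interferon (IFN) genes and of genes that IFN induces. The 6 genes *Irf1*, *Irf2*, *Irf3*, *Irf5*, *Irf7* and *Irf9* were taken by name from the 19058 genes of the main count table, and all 6 were present and passed the filter for testing. Their levels were followed in whole lacrimal glands of male nonobese diabetic (NOD) mice, a strain whose males develop spontaneous lacrimal gland autoimmunity. The RNA sequencing data analysed were from 3 wild-type (WT) mice, 5 *Tlr7* KO mice and 3 *Ifnar1* KO mice, with 1 gland per mouse.

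All mice were male and on the NOD strain. The *Tlr7* KO mice descend from 1 gene-edited founder allele with a deletion of 2 bases, made in NOD embryos with CRISPR/Cas9 and bred to homozygosity, and lack the endosomal sensor of single-stranded RNA. The *Ifnar1* KO mice lack a chain of the receptor for type I IFN. Another *Ifnar1* KO library was excluded by the study for resembling WT in its expression profile and histology. This exclusion was made in that genotype alone. The *Ifnar1* KO group was therefore selected in part on expression and inflammation, and every contrast with it describes the 3 retained mice. WT and *Tlr7* KO glands came from mice between 20 and 22 weeks of age, and the age of the *Ifnar1* KO mice is not given in the sources used here. The WT mice served as the reference for both knockouts, so the comparisons of each knockout with WT share those 3 mice and are not independent. The question of the design is which IRF genes depend on TLR7, which depend on the type I IFN receptor, and whether the knockouts differ from each other.

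The members have separate roles in the IFN circuit. IRF3, IRF5 and IRF7 are latent factors activated by phosphorylation downstream of nucleic acid sensors: IRF3 is made constitutively by most cells and serves the first wave of IFN beta, IRF7 is the main factor of the endosomal TLR7 and TLR9 route to IFN alpha in plasmacytoid dendritic cells, and IRF5 serves inflammatory cytokine genes in macrophages, dendritic cells and B cells. IRF9 is the DNA-binding subunit of ISGF3, the complex with STAT2 through which the type I IFN receptor acts on the IFN-stimulated response element (ISRE). ISGF3 also raises transcription of *Irf7*, which closes a positive loop. IRF1 is induced by IFN gamma through a GAS element and activates antigen presentation genes, and IRF2 occupies the same sites as IRF1 and is classed mostly as its antagonist.

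Short stretches of promoter are printed for the members whose windows hold a match to one of these elements, for *Irf7* as the member with the largest change, and for 2 target genes as examples of the element through which IRF9 acts. The sequences are from RefSeq (GRCm38.p6), which had windows of 300 bases, from 250 bases before the start of transcription to 50 after it, for all 6 members. Each is written 5′ to 3′ on the gene's own strand. Capitals mark matches, on either strand, to the ISRE core (GAAA, any 2 bases, GAAA) or to the GAS core (TTC, any 3 bases, GAA, which reads the same on both strands). The 2 target genes were picked as examples after the matches were seen. The *Irf2* stretch is chr8:46739495-46739554 (plus strand), that of *Irf1* is chr11:53769894-53769953 (plus strand), that of *Irf7* is chr7:141266495-141266574 (minus strand), that of *Isg15* is chr4:156200859-156200918 (minus strand) and that of *Ifit1* is chr19:34640769-34640828 (plus strand).
Irf2: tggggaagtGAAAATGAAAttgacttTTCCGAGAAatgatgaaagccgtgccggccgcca
Irf1: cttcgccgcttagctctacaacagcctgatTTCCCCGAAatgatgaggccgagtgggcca
Irf7: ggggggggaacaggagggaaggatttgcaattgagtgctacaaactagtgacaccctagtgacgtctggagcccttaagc
Isg15: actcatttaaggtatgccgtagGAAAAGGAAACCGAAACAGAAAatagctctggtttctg
Ifit1: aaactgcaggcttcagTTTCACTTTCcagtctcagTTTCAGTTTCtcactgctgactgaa

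In the *Irf2* window, the ISRE core lies at -241 to -232 and the GAS core at -224 to -216, counted from the start of transcription, and they do not overlap. *Irf1* holds a GAS core at -90 to -82 and no ISRE core in either of its listed windows. The windows of *Irf3*, *Irf5*, *Irf7* and *Irf9* hold neither string of letters, which says nothing about elements outside these 300 bases or in a looser form. *Isg15* carries 3 overlapping ISRE cores between -78 and -57, and *Ifit1* carries 2 separate ones, at -104 to -95 and -85 to -76, both on the opposite strand. Over all 32851 RefSeq promoter windows of this length, the ISRE core is found in 3.44% and the GAS core in 8.3%. Among 18 listed ISRE target genes, 14 had a window and 9 of those held the ISRE core. The ISRE core was not particular to that list. Among 16 listed genes of IRF1 and IFN gamma, 12 had a window and 5 of those held it. The GAS core was in 4 windows of the first list and 1 of the second.

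Libraries held 20512315 to 28814250 counts assigned to genes, and TMM scaling factors ran from 0.687 to 1.48. WT mouse 2 stood apart from its group: 4 genes of all leukocytes (*Ptprc*, *Laptm5*, *Coro1a* and *Cd53*) summed to 85.7 CPM (counts scaled to a common library size with TMM factors) in it, against 229 and 269 in the other WT mice. These sums ran from 32.1 to 88.2 in *Tlr7* KO mice and from 12 to 43.5 in *Ifnar1* KO mice, and all 4 markers were called lower in each knockout, as were 17.4% and 12.4% of all genes, and none between the knockouts (edgeR, 1 with an unadjusted p under 0.05). Without *Ifnar1* KO mouse 1 or 3, 0 of all genes were called between WT and *Ifnar1* KO, the markers included. The 6 B cell markers summed to 66.9 to 233 CPM in WT, 4.6 to 43 in *Tlr7* KO and 2.01 to 16.9 in *Ifnar1* KO mice. The 6 T cell markers summed to 16.5 to 51.3, 4.45 to 19.5 and 1.38 to 10.3 CPM, with 5 called lower in each knockout. The 6 myoepithelial markers summed to 79.1 to 98.8, 44.6 to 57.7 and 60.7 to 62.5 CPM, with 5 called lower in *Tlr7* KO and 2 in *Ifnar1* KO, and the 6 lacrimal acinar markers to 1960 to 3450, 5470 to 5760 and 5300 to 6130. *Lpo* carried the acinar sum (means of 1600, 4530 and 4760 CPM), while *Slc12a2* of the same list was called lower in both knockouts (-0.71, adjusted p = 0.0109, and -0.82, adjusted p = 0.0374). *Tlr7* itself was lower in *Tlr7* KO (log2 fold change -1.62, adjusted p = 0.00365) and in *Ifnar1* KO mice (-2.10, adjusted p = 0.026), with 12 to 25 counts left in the *Tlr7* KO libraries. *Ifnar1* was lower in *Ifnar1* KO (-0.61, adjusted p = 0.0485) and in *Tlr7* KO mice (-0.51, adjusted p = 0.022), so the level of neither targeted gene sets its own knockout apart. The *Ifnar1* call was lost in 9 of 15 alternatives in *Ifnar1* KO and in 5 of 17 in *Tlr7* KO. A deletion of 2 bases leaves the rest of a transcript to be counted, so the *Tlr7* level does not check the genotype. No marker was at 0 in all mice of a group. From the RNA of whole glands alone, fewer leukocytes and less RNA per cell cannot be told apart. The study also scored inflammation by histology in the other gland of each WT and *Tlr7* KO mouse. It reported clear inflammation in WT and only minimal inflammation in *Tlr7* KO. Those scores were not set against the RNA levels here.

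3 patterns were seen among the members. *Irf7* and *Irf9* were lower in *Ifnar1* KO than in both other groups, with no overlap between mice, and were not called in *Tlr7* KO against WT. *Irf1*, *Irf2* and *Irf5* were lower than WT in each knockout and were not called between the knockouts. *Irf3* had the narrowest range of CPM over the 11 mice. It was 1.18-fold higher in *Tlr7* KO than in WT after TMM scaling, and its sign turned under scaling by library size alone (log2 fold change 0.24 and -0.27). Of the 6 members, 4 were called between WT and *Tlr7* KO, where 32.8% of the 13937 genes tested were called, 5 between WT and *Ifnar1* KO, where 19.2% were, and 2 between the knockouts, where 1.79% were. A call is an adjusted p under 0.05, from the quasi-likelihood test of edgeR with the Benjamini-Hochberg method applied to all genes tested.

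**Figure D1:**
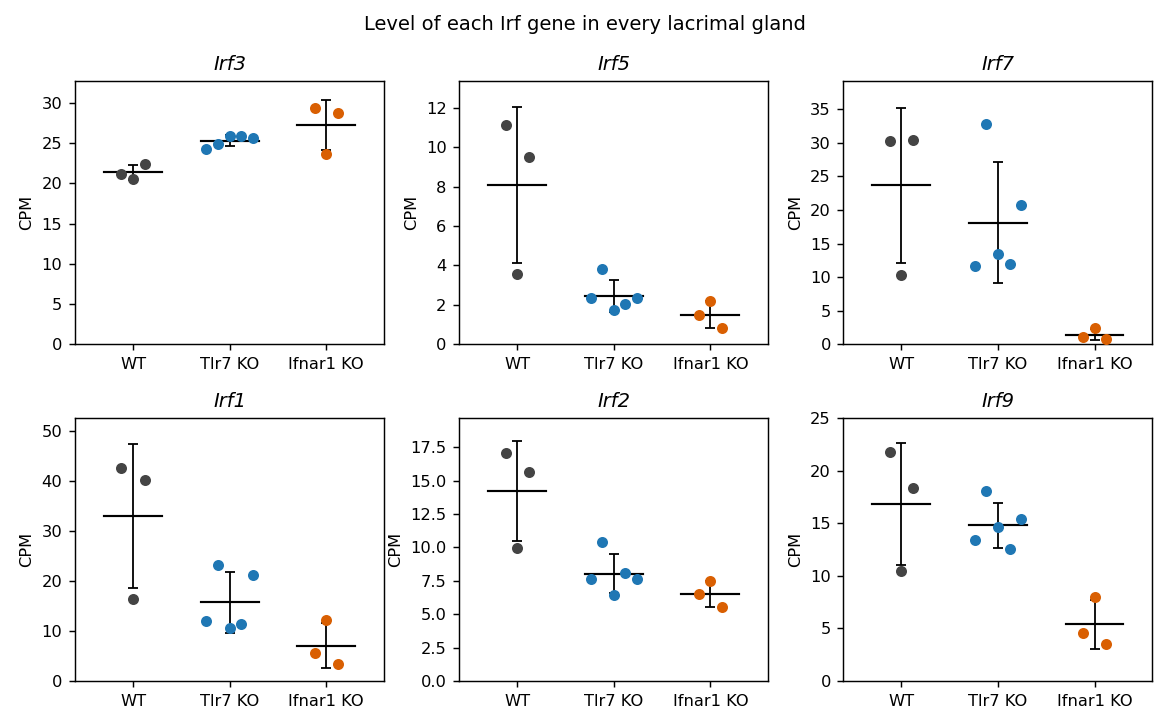
Level of each member in CPM (linear axis from 0) by genotype. Each point is 1 mouse, the long bar is the group mean and the error bar its SD (3 WT, 5 *Tlr7* KO, 3 *Ifnar1* KO). *Irf7* sits between 0.838 and 2.39 CPM in *Ifnar1* KO and at or above 10.3 in every other mouse, while *Irf3* stays between 20.6 and 29.3 CPM in all groups.

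*Irf7* (ENSMUSG00000025498; chr7:141262706-141266481, minus strand, GRCm38), the factor of the TLR7 route to IFN alpha, showed the largest difference of the 6 members. Its level was 30.2, 10.3 and 30.5 CPM in WT mice 1 to 3. The *Tlr7* KO mice measured 11.6, 32.9, 13.5, 11.9 and 20.8 CPM. In *Ifnar1* KO mice the values were 1.02, 2.39 and 0.838 CPM, from 30, 64 and 20 counts. The *Tlr7* KO mice thus spanned the same range as WT, with *Tlr7* KO mouse 2 above every WT mouse, and each *Ifnar1* KO mouse lay below all 8 others.

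Against WT, *Irf7* was 17-fold lower in *Ifnar1* KO (log2 fold change -4.09 ± 0.55, SE, 95% interval -5.37 to -2.80, adjusted p = 0.0207). Against *Tlr7* KO it was 12.7-fold lower in *Ifnar1* KO (-3.67 ± 0.48, -4.73 to -2.60, adjusted p = 0.00921), and only 0.251% of tested genes had a lower fold change in that comparison. Between WT and *Tlr7* KO the difference was -0.40 ± 0.42 (-1.34 to 0.55, adjusted p = 0.499), an interval that includes both no difference and a fall by more than 2-fold. With WT mouse 2 left out, this last value was -0.75 (adjusted p = 0.118), without *Tlr7* KO mouse 2 it was -0.73 (adjusted p = 0.158), and under scaling by library size alone it was -1.03 (adjusted p = 0.0917). It was -0.18 (adjusted p = 0.817) without WT mouse 1 and -0.17 (adjusted p = 0.827) without WT mouse 3.

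*Irf9* (ENSMUSG00000002325; chr14:55603571-55610030, plus strand), the DNA-binding subunit of ISGF3, followed the order of *Irf7* over a smaller range. WT mice measured 21.8, 10.4 and 18.3 CPM. *Tlr7* KO mice measured 13.4, 18, 14.7, 12.5 and 15.4 CPM, all inside the WT range. *Ifnar1* KO mice measured 4.6, 8.03 and 3.56 CPM, below every other mouse.

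The difference of *Irf9* between *Ifnar1* KO and WT was -1.67 ± 0.36 (3.18-fold lower, adjusted p = 0.0262), and that between *Ifnar1* KO and *Tlr7* KO was -1.45 ± 0.23 (2.74-fold lower, adjusted p = 0.0169). The call between the knockouts was lost without *Ifnar1* KO mouse 1 (-1.34, adjusted p = 0.0798) and without *Tlr7* KO mouse 5 (-1.44, adjusted p = 0.0504). *Tlr7* KO differed from WT by -0.19 ± 0.21 (95% interval -0.67 to 0.28, adjusted p = 0.509). That last value rested on single WT mice: it was -0.44 (adjusted p = 0.0224, called lower) without WT mouse 2 and 0.03 (adjusted p = 0.923) without WT mouse 1. *Irf9* overlaps *Rnf31*, a subunit of the linear ubiquitin ligase, on the same strand, and *Rnf31* was itself lower in *Ifnar1* KO than in *Tlr7* KO mice (log2 fold change -0.67, adjusted p = 0.0299). Reads in the shared exons could be split between these genes.

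Of all genes tested, 0.926% were called lower in *Ifnar1* KO than in *Tlr7* KO mice, and 5.47% were lower with no overlap between the groups. *Irf7* and *Irf9* met both criteria and the other 4 members neither. The 3 plasmacytoid dendritic cell markers in the table summed to 9.49 to 31.6 CPM in WT, 2.43 to 8.48 in *Tlr7* KO and 1.88 to 4.75 in *Ifnar1* KO mice. *Spib* carried this sum (a mean of 19.6 CPM in WT) and was called lower in *Tlr7* KO than in WT (-3.37, adjusted p = 0.00456), where *Siglech* (-1.81, adjusted p = 0.0554) and *Ccr9* (-0.18, adjusted p = 0.51) were not called. The 6 B cell markers had a median of -3.25 there, close to the value of *Spib*. Which cells gave the *Spib* counts was not tested, so the sum need not follow plasmacytoid dendritic cells. Of these markers *Ccr9* was lower in *Ifnar1* KO than in *Tlr7* KO with no overlap (log2 fold change -0.43, adjusted p = 0.352), *Spib* and *Siglech* overlapped, and their part in the *Irf7* difference was not tested.

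**Figure D2:**
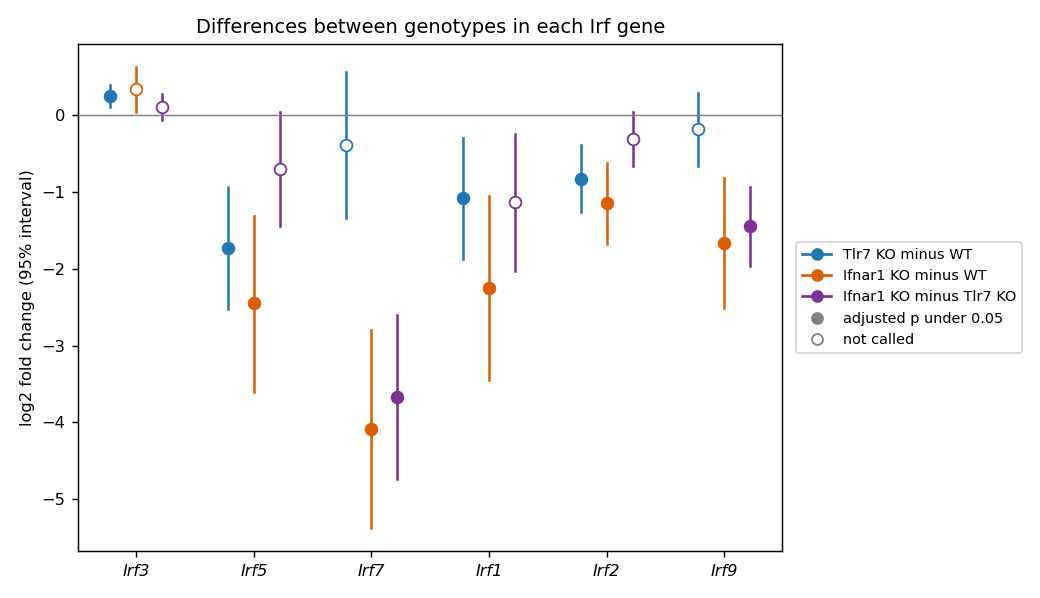
Log2 fold change (linear scale of log2 units) of each member in the 3 comparisons, with the 95% interval as a line. Filled points passed an adjusted p of 0.05 and open points did not. *Irf7* and *Irf9* are filled in both comparisons that involve *Ifnar1* KO, *Irf1*, *Irf2* and *Irf5* in both comparisons with WT, and *Irf3* lies near 0, with a filled value of 0.24 that turned to -0.27 under scaling by library size alone.

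*Irf5* (ENSMUSG00000029771; chr6:29526625-29541871, plus strand), the factor of inflammatory cytokine genes, was the least abundant member by CPM in WT and *Tlr7* KO. It measured 11.1, 3.59 and 9.51 CPM in WT. In *Tlr7* KO mice it measured 2.33, 3.83, 1.75, 2.02 and 2.32 CPM. *Ifnar1* KO mice had 1.46, 2.2 and 0.838 CPM. WT mouse 2 lay below *Tlr7* KO mouse 2, the highest of its group, and otherwise the WT values exceeded those of both knockouts.

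*Irf5* was 3.32-fold lower in *Tlr7* KO than in WT (log2 fold change -1.73 ± 0.35, adjusted p = 0.00688), the largest fall of the 6 members in that knockout. In *Ifnar1* KO it was 5.47-fold lower than in WT (-2.45 ± 0.49, adjusted p = 0.0237). The knockouts differed by -0.70 ± 0.34 (95% interval -1.44 to 0.04, adjusted p = 0.334). The 6 macrophage markers, of cells that use IRF5, summed to 114 to 197 CPM in WT, 71.9 to 103 in *Tlr7* KO and 36 to 71.1 in *Ifnar1* KO mice. *C1qa* and *C1qb* carried the sum in WT (means of 65 and 53.4 CPM). Of the 6, 3 were called lower (17.4% and 12.4% of all genes) and 1 higher (15.3% and 6.76%) in each knockout against WT, the latter being *Mertk* (0.46, adjusted p = 0.0188, and 0.63, adjusted p = 0.0344, or -0.03 and 0.34 under scaling by library size alone). Their part in the fall of *Irf5* was not tested.

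*Irf1* (ENSMUSG00000018899; chr11:53770014-53778374, plus strand), the IFN gamma-induced activator whose promoter stretch with the GAS core is printed above, measured 42.4, 16.5 and 40.1 CPM in WT. The *Tlr7* KO values were 12, 23.2, 10.5, 11.4 and 21.2 CPM. *Ifnar1* KO mice had 5.58, 12.1 and 3.48 CPM. The highest *Tlr7* KO mice thus exceeded WT mouse 2, while all *Ifnar1* KO mice were below WT.

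*Irf1* was 2.12-fold lower in *Tlr7* KO than in WT (-1.08 ± 0.35, adjusted p = 0.0401). This call was marginal: it was lost without WT mouse 1 or 3 and without *Tlr7* KO mouse 1, 3 or 4 (adjusted p = 0.0834 to 0.146), and the adjusted p was 0.0575 with all 11 mice in one fit. In *Ifnar1* KO mice it was 4.77-fold lower than in WT (-2.25 ± 0.51, adjusted p = 0.0282). Between the knockouts it differed by -1.14 ± 0.40 (95% interval -2.03 to -0.25) and did not pass the adjustment (adjusted p = 0.199). It was called there in 2 of 17 alternatives. These were the fit without *Ifnar1* KO mouse 2 (-1.78, adjusted p = 0.0236) and that with the replicate number as a block (adjusted p = 0.00338). Of genes tested, 3.98% had a lower fold change in this comparison.

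*Irf2* (ENSMUSG00000031627; chr8:46739732-46847458, plus strand), which binds the same sites as IRF1, moved less. It was at 17.1, 9.96 and 15.6 CPM in WT. *Tlr7* KO mice had 7.66, 10.4, 6.42, 8.07 and 7.66 CPM. The *Ifnar1* KO mice had 6.5, 7.47 and 5.53 CPM, all below WT.

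The fall of *Irf2* was 1.78-fold in *Tlr7* KO (-0.83 ± 0.19, adjusted p = 0.011) and 2.23-fold in *Ifnar1* KO (-1.15 ± 0.23, adjusted p = 0.0235). The knockouts differed by -0.31 ± 0.16 (95% interval -0.66 to 0.04, adjusted p = 0.364).

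*Irf3* (ENSMUSG00000003184; chr7:44997648-45002848, plus strand), the constitutive factor, was at 21.2, 20.6 and 22.4 CPM in WT. It was at 24.3, 24.9, 25.9, 25.9 and 25.6 CPM in *Tlr7* KO mice. *Ifnar1* KO mice had 29.3, 23.7 and 28.8 CPM. Every knockout mouse lay above every WT mouse, by a margin smaller than 1.5-fold at the group means.

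*Irf3* differed by 0.24 ± 0.06 in *Tlr7* KO against WT (1.18-fold higher, adjusted p = 0.0191) and by 0.33 ± 0.12 in *Ifnar1* KO (adjusted p = 0.0972), and these values were -0.27 and 0.02 under scaling by library size alone. Higher calls were 15.3% of genes in the first of these comparisons. That scaling moved the median of all genes from -0.04 to -0.54 and from -0.02 to -0.31, so *Irf3* stayed above the median gene under both scalings. Between the knockouts the difference was 0.10 ± 0.08 (95% interval -0.07 to 0.27, adjusted p = 0.536). Groups did not overlap, with the knockout higher, in 16.6% of genes for *Tlr7* KO and 20.7% for *Ifnar1* KO. The *Irf3* call in *Tlr7* KO was lost without WT mouse 1 (0.24, adjusted p = 0.0631). In *Ifnar1* KO against WT *Irf3* was called with all 11 mice in one fit (0.35, adjusted p = 0.0108).

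The 3 members called lower in *Tlr7* KO than in WT each overlapped WT in 1 or more mice, while 14.2% of genes were lower there with no overlap. The 5 calls between WT and *Ifnar1* KO were all lower with no overlap, as were 21.1% of genes tested, and were sensitive to single mice. Without WT mouse 1, *Ifnar1* KO mouse 1 or *Ifnar1* KO mouse 3 none of the members was called, and without WT mouse 3 only *Irf7* was. The same fits called 13, 0, 0 and 104 of all genes, with 3642, 4383, 3778 and 3565 genes at an unadjusted p under 0.05, so the loss was not particular to the IRF genes. The fold change of *Irf7* stayed between -4.68 and -3.84 over all alternatives, and that of *Irf9* between -2.06 and -1.45.

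Levels were also ordered within each genotype as CPM per kb of merged exon. In WT the order was *Irf1* (8.3 ± 3.61, SD, n = 3), *Irf7* (6.27 ± 3.08), *Irf3* (6.21 ± 0.27), *Irf9* (3.13 ± 1.08), *Irf5* (2.78 ± 1.37) and *Irf2* (1.92 ± 0.51). Neighbours in this order overlapped between mice except *Irf3* and *Irf9*. In *Tlr7* KO *Irf3* came first (7.36 ± 0.21, n = 5) and *Irf5* last (0.843 ± 0.278), with *Irf7* still second (4.8 ± 2.4), and only *Irf9* and *Irf2* were neighbours that did not overlap. In *Ifnar1* KO *Irf3* was first (7.92 ± 0.91, n = 3) and clear of *Irf1* (1.77 ± 1.13), and *Irf7* was last (0.375 ± 0.225), overlapping *Irf5* (0.517 ± 0.236).

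Ratios within a mouse need no scaling between libraries. The ratio of *Irf7* counts to *Irf3* counts, an inducible against a constitutive factor, was 1.43, 0.498 and 1.36 in WT mice. It was 0.477, 1.32, 0.521, 0.459 and 0.812 in *Tlr7* KO mice. In *Ifnar1* KO mice it was 0.0348, 0.101 and 0.0291, below all others. The ratio of *Irf1* to *Irf2* counts, an activator against its antagonist, averaged 2.23 ± 0.51 (SD, n = 3) in WT, 1.92 ± 0.56 (n = 5) in *Tlr7* KO and 1.04 ± 0.52 (n = 3) in *Ifnar1* KO mice. All 3 *Ifnar1* KO mice lay below WT, the closest being 1.62 against 1.65, but overlapped *Tlr7* KO mice. In the second deposited table the separation from WT was lost, with *Ifnar1* KO mouse 2 at 2.06 and WT mouse 2 at 1.81. These ratios are descriptions, without a test, and are not corrected for gene length.

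**Figure D3:**
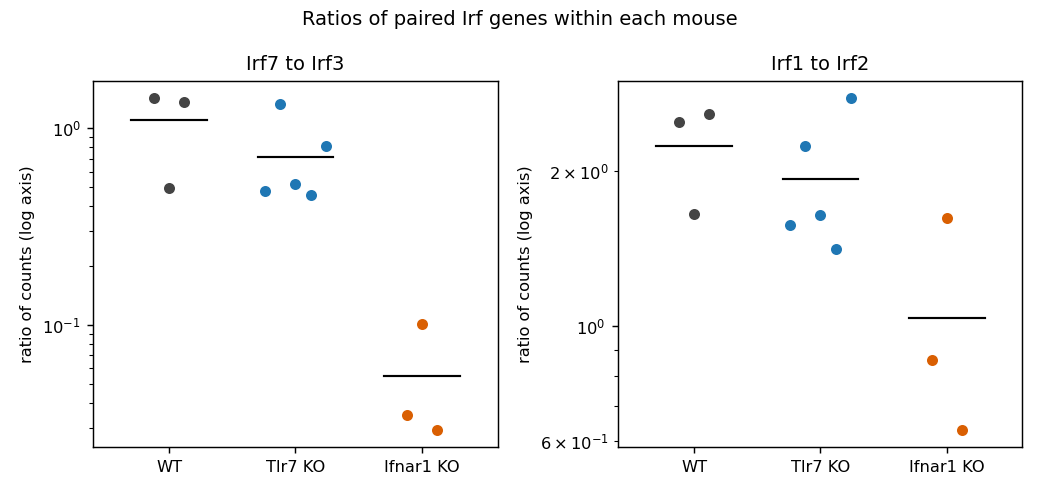
Ratio of *Irf7* to *Irf3* counts (left) and of *Irf1* to *Irf2* counts (right) in each mouse, on log axes. Each point is 1 mouse and the bar is the arithmetic mean of the group. The *Irf7* to *Irf3* ratio is at most 0.101 in *Ifnar1* KO mice and at least 0.459 in all others.

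Since leukocyte markers differed between groups, the counts of each member were also set against the summed counts of the 4 leukocyte markers in the same mouse, a measure chosen after the values were seen. *Irf5* came to 4.13, 4.19 and 4.15 counts per 100 marker counts in the 3 WT mice, although its CPM differed 3-fold among them. *Irf5* was between 4.34 and 5.44 in *Tlr7* KO and between 5.06 and 6.99 in *Ifnar1* KO mice, so it fell slightly less than the markers. *Irf7* was between 11.2 and 13.3 in WT, 24.3 and 47.4 in *Tlr7* KO, and 4.41 and 6.99 in *Ifnar1* KO mice, and the 3 groups did not overlap. *Irf9* was higher in both knockouts (20.5 to 45.6 in *Tlr7* KO, 18.5 to 29.7 in *Ifnar1* KO) than in WT (8.01 to 12.2). *Irf1* was at 15.8 to 19.2 in WT, 25.1 to 48.2 in *Tlr7* KO and 24.1 to 29 in *Ifnar1* KO mice. *Irf2* averaged 8.26, 17 and 30.5 in WT, *Tlr7* KO and *Ifnar1* KO mice. *Irf3*, whose CPM changed little, averaged 13.9, 56.5 and 140, so a gene of steady CPM rises on this measure as the markers fall, and the rise of *Irf3* in *Tlr7* KO was larger than that of *Irf7*. The glands hold epithelium and stroma besides leukocytes, and the part of leukocyte number in any of the differences was not tested.

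**Figure D4:**
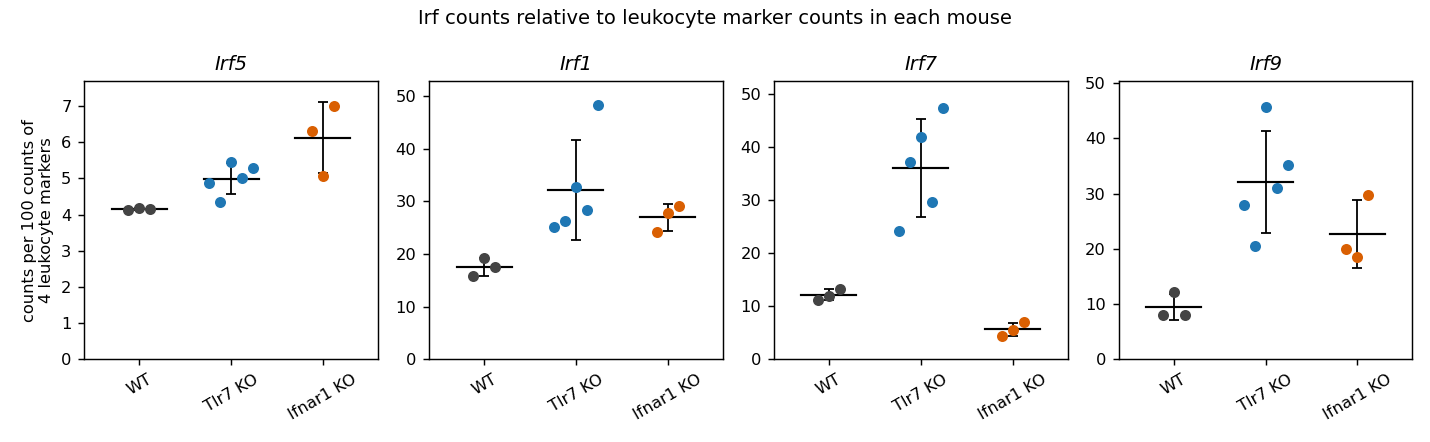
Counts of 4 members per 100 counts of the leukocyte markers *Ptprc*, *Laptm5*, *Coro1a* and *Cd53* in the same mouse (linear axes from 0). Points are mice, long bars group means and error bars SD. *Irf5* runs from 4.13 to 4.19 in WT and from 4.34 to 6.99 in the knockouts. *Irf7* is highest in *Tlr7* KO and lowest in *Ifnar1* KO, and on this measure a gene of steady CPM, such as *Irf3*, rises in both knockouts.

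*Irf4* and *Irf8*, which serve lymphoid and myeloid development, were measured alongside. Both were called lower in *Tlr7* KO than in WT, where 17.4% of genes were, with log2 fold changes of -1.45 for *Irf4* (adjusted p = 0.0157) and -0.90 for *Irf8* (adjusted p = 0.0266). In *Ifnar1* KO against WT neither passed the adjustment, at -1.34 for *Irf4* (adjusted p = 0.112) and -1.02 for *Irf8* (adjusted p = 0.0517). Both had an unadjusted p under 0.05 there, as did 37.6% of genes. Of the 3 other *Irf* genes in the table, which include these 2, all were called lower in *Tlr7* KO, and 1 was without WT mouse 1. In *Ifnar1* KO against WT 0 of the 3 were called. Without WT mouse 2 this count was 2, and with all 11 mice in one fit it was 3, where 34.4% and 36.8% of all genes were called. Between the knockouts *Irf4* differed by 0.14 (95% interval -0.48 to 0.76, adjusted p = 0.847) and *Irf8* by -0.10 (-0.48 to 0.29, adjusted p = 0.82).

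Genes that IRF9 and IRF7 are known to act on were read from a list of 18 ISRE targets, antiviral effectors among them. In *Tlr7* KO against WT none was called by edgeR's quasi-likelihood test or by DESeq2, 2 had an unadjusted p under 0.05, where 44.9% of genes did, and the median log2 fold change was -0.63, against -0.04 over all genes. Without WT mouse 2, 11 of the 18 were called lower, and 6 were under scaling by library size alone. Those 2 fits called 48.9% and 31.5% of all genes in either direction. In *Ifnar1* KO against WT 14 of 18 were lower, with a median of -3.27 against -0.02 over all genes, where 12.4% of genes were called lower. Between the knockouts 13 of 18 were called lower in *Ifnar1* KO (0.926% of all genes) and all 18 were lower with no overlap (5.47% of all genes), with a median of -2.69 against -0.00 over all genes. Both medians against *Ifnar1* KO are the same with *Oas2* at its bound.

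Among them, *Oas2*, an activator of RNase L, had 15 to 152 counts in WT, 14 to 49 in *Tlr7* KO and 0 in every *Ifnar1* KO mouse, at least 20.5-fold lower than WT against a floor of 3 counts per library. *Mx1*, a dynamin-like antiviral GTPase, was called lower in *Ifnar1* KO than in WT (adjusted p = 0.0398), with 6 to 82 counts in WT and 0 to 6 in *Ifnar1* KO mice, too few for an exact fold change. *Ifit1*, which binds uncapped viral RNA and whose promoter with 2 ISRE cores is printed above, had a log2 fold change of -4.09 (adjusted p = 0.0247). *Isg15*, the ubiquitin-like modifier with 3 overlapping cores, had -3.51 (adjusted p = 0.0244), from 0.97 to 5.25 CPM in WT and 1.34 to 3.83 in *Tlr7* KO to 0.17 to 0.523 in *Ifnar1* KO. *Ifit3* had -3.78 (adjusted p = 0.023). *Oas3* was called lower (adjusted p = 0.0464), with 8 to 155 counts in WT and 1 to 11 in *Ifnar1* KO mice, too few for an exact fold change. Calls on this list also depended on single mice, from 0 to 18 in *Ifnar1* KO against WT and from 3 to 18 between the knockouts with 1 mouse left out. They were 0 without WT mouse 1, WT mouse 3, *Ifnar1* KO mouse 1 or *Ifnar1* KO mouse 3, and 3 between the knockouts without *Ifnar1* KO mouse 1 or with all 11 mice in one fit. Between the knockouts they were 5 to 7 without *Ifnar1* KO mouse 3 or *Tlr7* KO mouse 1, 3 or 5.

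A list of 16 genes of IRF1 and IFN gamma holds many genes of antigen processing. In *Tlr7* KO against WT 11 of 16 were called lower, as were 17.4% of all genes, with a median of -1.67 against -0.04 over all genes. In *Ifnar1* KO against WT 15 of 16 were, beside 12.4% of all genes, with a median of -3.25 against -0.02. Between the knockouts none was called by edgeR, 9 had an unadjusted p under 0.05, as did 16.3% of genes, and the median was -1.23. DESeq2 called 2 there (4.14% of all genes). *Cxcl10*, a chemokine for activated T cells, was called in *Ifnar1* KO (-3.84, adjusted p = 0.0249) and had -1.55 (adjusted p = 0.0896) in *Tlr7* KO. *Cxcl9*, its relative, was lower in both knockouts (-2.43, adjusted p = 0.0187, in *Tlr7* KO and -3.63, adjusted p = 0.0481, in *Ifnar1* KO), as was the immunoproteasome subunit *Psmb9* (-1.77, adjusted p = 0.0207, and -3.46, adjusted p = 0.0252). *Ciita*, the activator of class II genes, had -2.31 (adjusted p = 0.00479) in *Tlr7* KO and -3.43 (adjusted p = 0.025) in *Ifnar1* KO. Without WT mouse 1 or 3, 3 of 16 were called in *Tlr7* KO, and 7 were without *Tlr7* KO mouse 1. In *Ifnar1* KO against WT 0 were called without WT mouse 1 or 3 or *Ifnar1* KO mouse 1 or 3. Without WT mouse 2, all 16 were called in each knockout, where 48.9% (*Tlr7* KO) and 34.4% (*Ifnar1* KO) of all genes were called. Without *Ifnar1* KO mouse 2, 8 were called between the knockouts, where 6.29% of all genes were.

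**Figure D5:**
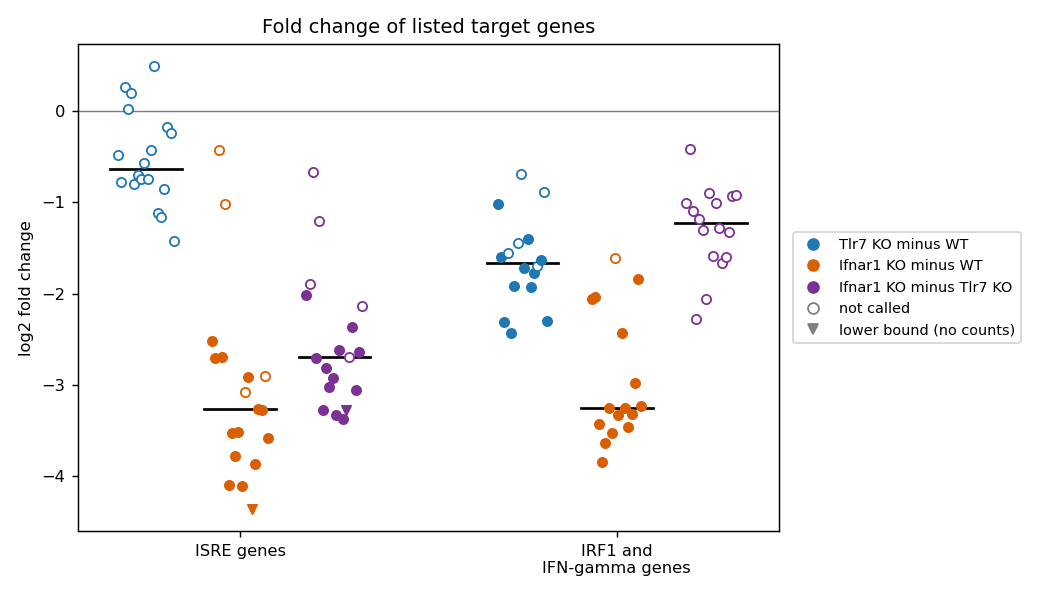
Log2 fold change of 18 ISRE genes (left) and 16 genes of IRF1 and IFN gamma (right) in 3 comparisons. Each point is 1 gene, filled if called, and the bar is the list median. The triangles mark *Oas2* in the comparisons with *Ifnar1* KO, where it had no counts. They stand at the smallest fall that the floor of 3 counts allows, so the fold change lies at or below them. ISRE genes have a median of -0.63 in *Tlr7* KO and -3.27 in *Ifnar1* KO against WT, and the right-hand list -1.67 and -3.25.

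Upstream of the latent factors, 20 sensors, adaptors and kinases were followed. In *Tlr7* KO against WT 7 were lower and 1 higher, in *Ifnar1* KO 6 lower and 1 higher, and between the knockouts 1 was lower in *Ifnar1* KO. The counts against WT include *Tlr7*, the gene targeted in one of the knockouts. Beside the 3 lower counts, 17.4%, 12.4% and 0.926% of all genes were called lower. The count in *Tlr7* KO was 3 without WT mouse 1 and 4 without WT mouse 3. That in *Ifnar1* KO was 0 without WT mouse 1 or 3 or *Ifnar1* KO mouse 1 or 3 and 11 without WT mouse 2, and that between the knockouts was 4 without *Ifnar1* KO mouse 2. *Tlr9*, the DNA sensor of B cells and plasmacytoid dendritic cells, had -2.08 on the log2 scale in *Tlr7* KO (adjusted p = 0.0123). In *Ifnar1* KO its value was -3.30 (adjusted p = 0.0311). In the pairs of values that follow, *Tlr7* KO against WT comes first and *Ifnar1* KO against WT second. *Tmem173*, which encodes STING, had -1.73 (adjusted p = 0.00536) and -2.42 (adjusted p = 0.023). *Unc93b1*, the chaperone of endosomal TLRs, had -1.47 (adjusted p = 0.00548) and -2.05 (adjusted p = 0.0248). *Ddx58*, which encodes the RNA helicase RIG-I and is itself an IFN-induced gene, followed *Irf7*, with -0.13 (adjusted p = 0.747) in *Tlr7* KO, -1.48 (adjusted p = 0.0295) in *Ifnar1* KO and -1.33 (adjusted p = 0.0126) between the knockouts. *Mavs*, the mitochondrial adaptor of RIG-I, was called higher in both knockouts, as were 15.3% and 6.76% of genes (0.40, adjusted p = 0.00434, and 0.58, adjusted p = 0.0219), and under scaling by library size alone its values were -0.10 and 0.27. The kinase *Tbk1*, which phosphorylates IRF3 and IRF7, measured -0.09 (adjusted p = 0.379) and -0.12 (adjusted p = 0.474).

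Of 9 receptor chains, kinases and signalling partners, 6 were lower in each knockout against WT (17.4% and 12.4% of all genes) and 1 between the knockouts (0.926%). The 6 include *Ifnar1*, the gene targeted in one of the knockouts. In *Tlr7* KO the count was 1 without WT mouse 1 or 3 and 3 without *Tlr7* KO mouse 3 or 4. In *Ifnar1* KO it was 0 without WT mouse 1 or 3 or *Ifnar1* KO mouse 1 or 3. The call between the knockouts was lost without *Ifnar1* KO mouse 1 or 3 or *Tlr7* KO mouse 1, 3, 4 or 5, and 2 genes were called without *Ifnar1* KO mouse 2. *Stat2*, the partner of IRF9 in ISGF3, had -0.05 (adjusted p = 0.928) in *Tlr7* KO and -1.38 (adjusted p = 0.0557) in *Ifnar1* KO against WT, and was lower in *Ifnar1* KO than in *Tlr7* KO (-1.31, adjusted p = 0.0342). *Jak2*, a kinase of the IFN gamma receptor, had -1.11 (adjusted p = 0.00437) and -1.38 (adjusted p = 0.023), while *Tyk2*, a kinase of the type I IFN receptor, measured 0.15 (adjusted p = 0.476) and -0.08 (adjusted p = 0.825).

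Among 10 corepressors and negative regulators, 1 was lower and 1 higher in *Tlr7* KO, 5 were lower in *Ifnar1* KO against WT, and 3 were lower in *Ifnar1* KO than in *Tlr7* KO. The shares of all genes called lower were 17.4%, 12.4% and 0.926%. The lower count in *Tlr7* KO was 4 without WT mouse 2, 3 without *Tlr7* KO mouse 2 and 0 without any other mouse. In *Ifnar1* KO it was 0 without WT mouse 1 or 3 or *Ifnar1* KO mouse 1 or 3, and 2 without *Ifnar1* KO mouse 2. Between the knockouts it was 1 without *Ifnar1* KO mouse 1 or 3 or *Tlr7* KO mouse 1, 2, 3 or 4. *Usp18*, the protease that removes ISG15 and damps the type I IFN receptor, had -2.72 (adjusted p = 0.0402) in *Ifnar1* KO against WT and -3.34 (adjusted p = 0.014) against *Tlr7* KO. Its value in *Tlr7* KO against WT was 0.64 (adjusted p = 0.325). *Socs1*, the inhibitor of JAK kinases, had -3.32 (adjusted p = 0.0269) in *Ifnar1* KO and had -1.70 (adjusted p = 0.13) in *Tlr7* KO. *Irf2bpl*, of the IRF2-binding protein family, was 0.32 in *Tlr7* KO against WT (adjusted p = 0.0145, -0.18 under scaling by library size alone) and -0.43 between the knockouts (adjusted p = 0.0336).

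Transcripts of IFN genes themselves were at or near 0 counts in these glands. Of 12 listed, only *Ifng* was in the main table, with at most 10 counts in a WT mouse and 1 in a knockout mouse, too few to be tested. In the second deposited table, which covers 39017 genes, 10 of the 12, among them *Ifnb1* and 6 IFN alpha genes, had 0 counts in all 11 mice, which allows up to 3 counts per library and covers counting error only. Among 8 cytokine genes linked to IRF5, 5 could be tested. In *Tlr7* KO 2 were lower, *Il12b* and *Ccl5*, and in *Ifnar1* KO 3 were, *Tnf*, *Ccl4* and *Ccl5*, beside 17.4% and 12.4% of all genes. *Il12b* and *Ccl4* passed the filter through their WT counts, and under the filterByExpr filter of edgeR 1 and 2 were called. The first count was 0 without WT mouse 1 or 3 and 1 without *Tlr7* KO mouse 1, 3, 4 or 5. The second was 0 without WT mouse 1 or 3 or *Ifnar1* KO mouse 1 or 3, and 5 without WT mouse 2. *Ccl5*, a T cell and monocyte chemokine, had -1.33 (adjusted p = 0.0171) and -2.78 (adjusted p = 0.0219). *Tnf* had -0.76 (adjusted p = 0.121) and -2.15 (adjusted p = 0.0235). *Il12b* had 1 to 33 counts in WT and 2 or 3 in *Tlr7* KO mice, and *Ccl4* had 6 to 29 in WT and 1 to 3 in *Ifnar1* KO mice, too few for a firm fold change. Between the knockouts none of the 5 was called by edgeR, 2 had an unadjusted p under 0.05 (16.3% of all genes), and DESeq2 called 1 (4.14% of all genes).

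Genes most like each member were found by the Pearson correlation of log2 CPM over the 11 mice, among 11494 genes, as a description in which the points share the genotypes and their differences in leukocyte RNA. Closest to *Irf7* were *Lgals3bp* (r = 0.988), *Bst2* (0.988) and *Rtp4* (0.98). *Irf9* was closest to *Lgals3bp* (0.991), *Rtp4* (0.991) and *Apol9b* (0.983). *Irf1* was closest to *Nlrc5*, the activator of class I genes (0.995), *Psmb9* (0.994) and *Irgm1* (0.993), all of antigen presentation or IFN-inducible GTPase families. *Irf5* was closest to *Msn* (0.998), *Dock10* (0.996) and *Unc93b1* (0.995), and *Irf2* to *Parvg* (0.995), *Arhgef6* (0.994) and *Arhgdib* (0.993), several of which are cytoskeletal genes of blood cells. *Irf3* was closest to *Cxxc4* (0.962), *Man2a2* (0.954) and *Top1mt* (0.941). Within the set, *Irf7* and *Irf9* correlated at 0.98 and *Irf2* and *Irf5* at 0.988, while *Irf3* ran opposite to the other 5 (-0.809 to -0.621).

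The members lie on 5 chromosomes, and their annotated neighbours were tested where they passed the filter. *Irf7* overlaps *Phrf1* on the opposite strand, which measured -0.04 in *Ifnar1* KO against WT (adjusted p = 0.85). *Irf3* overlaps *Bcl2l12* on the opposite strand (-0.45 in *Tlr7* KO, adjusted p = 0.332). *Irf5* overlaps *Tnpo3* on the opposite strand. *Tnpo3* was called higher in *Tlr7* KO than in WT (0.25, adjusted p = 0.041), as were 15.3% of genes. It had 0.34 in *Ifnar1* KO against WT (adjusted p = 0.0523, no overlap) and 0.10 between the knockouts (adjusted p = 0.525). *Gm12216*, next to *Irf1*, was lower in both knockouts (-1.53, adjusted p = 0.0122, and -2.31, adjusted p = 0.0268). *Psme2*, a proteasome activator subunit beside *Irf9*, was lower in both knockouts (-0.94, adjusted p = 0.0212, and -1.55, adjusted p = 0.0254). Whether counting used strand is not stated, so reads of overlapping genes on opposite strands may not be separated.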

How the data were processed

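RNA of whole lacrimal glands from the 11 male NOD mice analysed had been sequenced on an Illumina HiSeq instrument. The authors used salmon for transcripts and tximport for gene-level totals. The deposited estimated counts (19058 genes, whole numbers, Ensembl annotation of mm10) are the main table. They are named as normalized, but their totals and size factors differ as raw libraries do, so they were used as counts. A second deposited table of raw counts (39017 genes, from reads aligned with HISAT2 2.1.0 per the labels, counter not given in the sources used here) served as an alternative. It also holds 1 column of values that matches no sample, which was not used.

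R 4.3.3 with edgeR 4.0.16 (limma 3.58.1) was used. Genes with a summed WT count of at least 30 were tested, in separate fits of each 2 groups, with TMM scaling, the quasi-likelihood test and Benjamini-Hochberg adjustment over 13937 genes, two-sided. Intervals are 95%. CPM used TMM factors over all 11 mice. The scripts were tested on simulated data. The members and lists were chosen with earlier results of these data known. The gene for cGAS was matched through its RefSeq synonym. Named genes are the members, *Tlr7*, *Ifnar1*, *Irf4*, *Irf8*, up to 6 genes of each list with the largest called change and others named for their role, the 3 genes most correlated with each member, and annotated neighbours (GENCODE M21, GRCm38). Labels do not state that replicates differ in litter or batch, and p-values measure the spread between these mice. Alternatives were DESeq2 1.42.0, other scalings and filters, a single fit, the replicate number as a block, each mouse left out, the second table and, added after seeing the data, edgeR's robust prior. Some genes of this rule are not reported here.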

Additional observations from a re-analysis of the deposited data

Results flagged for a closer look

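*Irf5* in *Tlr7* KO mice was set apart by 1 mouse: *Tlr7* KO mouse 2 had 3.83 CPM, and its gap to the next mouse was 0.718 of the range of the group, above the critical value for 5 mice. Chance gives about 1 such mouse in 20 groups, and 10 groups were looked at. The same mouse was the highest of its group for *Irf7* (32.9 CPM), *Irf9* (18 CPM) and the leukocyte marker sum (88.2 CPM). Without it, *Irf5* differed from WT by -1.95 (adjusted p = 0.00514, edgeR).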

How the results depend on the processing

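Of 6 members, 4 were called between WT and *Tlr7* KO, 5 between WT and *Ifnar1* KO and 2 between the knockouts. With 1 mouse left out these counts ranged from 2 to 5, 0 to 5 and 1 to 3. With the replicate number as a block they were 0, 0 and 3. The labels do not say that the numbers pair the mice. For WT and *Tlr7* KO, same-numbered mice correlated in their deviations at -0.4 to 0.0305, and other pairs at -0.443 to 0.305. For WT and *Ifnar1* KO these ranges were -0.44 to -0.158 and -0.188 to 0.383. Between the knockouts they were 0.0641 to 0.34 and -0.341 to 0.0675. The block results against WT therefore say nothing of a weaker effect. Whether the numbers pair the knockout mice was not tested. The block also cut the genes called from 4566 to 14 and from 2677 to 0, and moved them from 250 to 502 between the knockouts. 3 values turned in sign. *Irf3* in *Tlr7* KO against WT was -0.27 under library size alone (adjusted p = 0.323), *Irf9* in that comparison was 0.03 without WT mouse 1, and *Ifnar1* between the knockouts was 0.09 under library size alone (adjusted p = 0.773). Library size alone moved the median of all genes to -0.54, -0.31 and 0.19, by the construction of that scaling. Of 392 values of the members and targeted genes under an alternative, these 3 included, 327 kept sign and side of the threshold, 58 lost the call and 4 gained it. *Irf7* between the knockouts was called under all 17 alternatives (-4.27 to -3.34). With edgeR's robust prior, chosen after seeing the data, 3, 5 and 2 members were called, *Irf1* losing its call in *Tlr7* KO. The group means of both ratios moved by less than their SD in all 28 alternatives, although in the second table *Irf1* to *Irf2* no longer separated *Ifnar1* KO from WT mice. For the list counts 111 of 688 moved by over 1.5 times, and the cause was not tested. Calls over all genes moved as well. Without WT mouse 2 they were 48.9% in *Tlr7* KO and 34.4% in *Ifnar1* KO against WT. Without *Ifnar1* KO mouse 2 they were 6.29% between the knockouts. Genes called over all tested, with all 11 mice in one fit, were 5124 against 2677 in *Ifnar1* KO and 93 against 250 between the knockouts, and 577 with DESeq2 between the knockouts. The lowest *Irf5* and *Irf7* values rest on 20 counts each.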
